A study of Mus musculus with 12 samples.

Results

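The genes described were 38 genes of the integrated stress response and of the unfolded protein response, chosen by symbol and found in the count table through their Ensembl identifiers. The choice was made with earlier results of these data known. All 38 were among the 56980 gene identifiers of the table, and all 38 passed the filter on low counts, which left 15110 genes for testing. By role they were 9 regulators of the integrated stress response, 8 genes of amino acid synthesis, folate metabolism and amino acid transport, 4 sensors or transducers of stress in the endoplasmic reticulum (ER), 13 ER chaperones and folding enzymes, and 4 genes of ER-associated degradation. Levels are in CPM, a count relative to the size of its library, on a scale set by trimmed-mean (TMM) factors.

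In the integrated stress response, kinases that sense amino acid shortage, unfolded protein in the ER, double-stranded RNA or a lack of haem phosphorylate the translation initiation factor eIF2α. General protein synthesis then slows, while translation of the transcription factor ATF4 rises, and ATF4 switches on genes for amino acid synthesis, amino acid uptake and the charging of transfer RNAs. The unfolded protein response shares the kinase PERK with this pathway and adds ATF6 and IRE1, which raise chaperones, folding enzymes and the machinery that removes misfolded proteins from the ER. In macrophages, signalling through Toll-like receptors is known to activate IRE1 and the splicing of Xbp1 mRNA. Counts per gene measure RNA abundance and hold no information on eIF2α phosphorylation, on ATF4 protein or on Xbp1 splicing.

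Mouse bone marrow-derived macrophages, grown from marrow over 7 days with medium that L929 cells had conditioned, gave 12 RNA sequencing libraries. Knockout cells carried the genotype labelled RankCre-Regnaes3cKO (cKO), a conditional deletion of Regnase-3 by a Cre named for Rank, and control cells were labelled wildtype (WT). Stimulated cells (M1) received 100 ng/ml of lipopolysaccharide and 10 ng/ml of interferon-gamma, and unstimulated cells (M0) received neither. The groups were cKO_M1 (replicates 7 to 9), WT_M1 (replicates 10 to 12), cKO_M0 (replicates 1 to 3) and WT_M0 (replicates 4 to 6), with 3 libraries each. The aim given for the series is the role of Regnase-3 when macrophages that express Rank are polarized. The labels describe no Cre-only control, no stimulation time and no strain, age or sex, and they leave unsaid whether each replicate was its own animal or culture, so the p-values rest on the spread between libraries, which may be technical.

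Library totals lay between 41721452 and 42197986 counts. Zc3h12c, the gene of Regnase-3, had 98.4, 104 and 127 CPM in cKO_M1, against 176, 192 and 159 CPM in WT_M1, and 13.6, 18.5 and 14.8 CPM in cKO_M0, against 17.2, 16.4 and 15.6 CPM in WT_M0. It was lower in cKO than in WT in M1 (log2 fold change -0.68, SE 0.12, adjusted p = 0.00101) and did not pass in M0 (log2 fold change -0.07, SE 0.12, adjusted p = 0.809). A count over the whole gene also takes in reads from transcripts that lack a deleted exon, and the labels do not name the deleted part, so groups are called by their labels. Tnfrsf11a, the gene of RANK, lay between 84.5 and 182 CPM in the 12 libraries, and its libraries overlapped in both genotype comparisons. The 8 macrophage markers summed to between 14200 and 18840 CPM in every library. The 12 markers of B and plasma cells, which are cells rich in ER, summed to between 0.597 and 1.31 CPM in cKO_M1 and between 3.39 and 6.01 CPM in WT_M1, and to between 34.2 and 63.7 CPM in cKO_M0 and between 54.7 and 71.9 CPM in WT_M0. The 5 markers of mast cells and basophils summed to between 0.256 and 0.594 CPM in cKO_M1 and between 0.967 and 1.17 CPM in WT_M1, and to between 3.38 and 5.97 CPM in cKO_M0 and between 6.67 and 7.37 CPM in WT_M0. The 5 stromal markers summed to between 1.19 and 1.79 CPM in cKO_M1 and between 1.92 and 2.11 CPM in WT_M1, and to between 0 and 0.118 CPM in cKO_M0 and between 0.16 and 4.89 CPM in WT_M0. The sums of T and NK cell, neutrophil, erythroid and dendritic cell markers overlapped between genotypes in both states. The part of these cells in the results below was not tested, and in bulk RNA fewer cells of a type and less RNA per cell cannot be told apart.

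Promoter sequences were read from RefSeq for 34 of the 38 genes, as 250 bases before and 50 bases after the start, on the build GRCm38.p6, which is not the build of the counts. They were searched on both strands for 4 elements. The ER stress element, which is CCAAT and CCACG with 9 bases of any kind between them, is bound by NF-Y and ATF6 and is known from ER chaperone genes. The second form of it, ATTGG and CCACG with 1 base between them, is known from Herpud1, and every match of either form holds CCACG. The C/EBP-ATF response element, TGATGNAA, is known as a binding element of ATF4, and TGACGTGG is an element of the unfolded protein response. The following stretches are shown because they hold the elements found: the C/EBP-ATF element was in 2 of 8 promoters of stress regulators and 1 of 7 of amino acid genes, and the ER stress element in 7 of 12 of ER folding genes; capitals mark the matched letters. The first 4 hold the C/EBP-ATF element, the next holds the second form of the ER stress element and the last 4 hold the ER stress element. Positions count from the start, at 0, with negative numbers before it.
Asns: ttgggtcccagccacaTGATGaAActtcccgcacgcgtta
Chac1: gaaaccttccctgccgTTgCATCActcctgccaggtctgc
Trib3: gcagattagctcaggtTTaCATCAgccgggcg
Herpud1: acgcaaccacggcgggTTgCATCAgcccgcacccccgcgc
Herpud1: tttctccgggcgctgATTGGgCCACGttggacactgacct
Hspa5: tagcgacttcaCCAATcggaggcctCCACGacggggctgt
Calr: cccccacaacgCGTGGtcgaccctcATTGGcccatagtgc
Canx: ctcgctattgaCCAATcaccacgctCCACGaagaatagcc
Dnajc3: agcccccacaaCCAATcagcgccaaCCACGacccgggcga
The Asns stretch with the C/EBP-ATF element is chr6:7693209-7693248 (minus strand), with the element at positions -23 to -16. The Chac1 stretch with the C/EBP-ATF element is chr2:119351033-119351072 (plus strand), with the element at positions -193 to -186. The Trib3 stretch with the C/EBP-ATF element is chr2:152344031-152344062 (minus strand), with the element at positions 14 to 21. The Herpud1 stretch with the C/EBP-ATF element is chr8:94386301-94386340 (plus strand), with the element at positions -112 to -105. The Herpud1 stretch with the second-form element is chr8:94386362-94386401 (plus strand), with the element at positions -52 to -42. The Hspa5 stretch with the ER stress element is chr2:34772014-34772053 (plus strand), with the element at positions -65 to -47. The Calr stretch with the ER stress element is chr8:84847065-84847104 (minus strand), with the element at positions -162 to -144. The Canx stretch with the ER stress element is chr11:50325790-50325829 (minus strand), with the element at positions -145 to -127. The Dnajc3 stretch with the ER stress element is chr14:118937816-118937855 (plus strand), with the element at positions -105 to -87.

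The C/EBP-ATF element was found in 4 of the 34 promoters (11.8%), those of Asns, Chac1, Trib3 and Herpud1, against 4.51% of all 27025 promoters of the same length. The ER stress element was found in 8 of 34 (23.5%), against 0.137% of all promoters. Of these 8 genes, 7 were among the 12 ER folding genes with a promoter (Calr, Canx, Creld2, Dnajc3, Hsp90b1, Hspa5 and Pdia6), and the eighth was Syvn1. None of the 8 regulators and none of the 7 amino acid genes with a promoter held it. The second form was in the promoters of Herpud1 and Dnajb11, and TGACGTGG was in none of the 34, against 0.714% of all promoters. A match of letters is not shown to be bound, and no match says only that these letters are not in this window.

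In stimulated cells, 12 of the 17 stress regulator and amino acid genes were lower in cKO than in WT macrophages, among them Atf4, Ddit3, Trib3, Asns and Slc7a5, while 11 of the 13 ER chaperones and folding enzymes did not pass. Of the 5 others among the 17, Atf5 and Shmt2 had negative and Eif4ebp1, Psat1 and Psph positive log2 fold changes. Of the 38 genes, 17 were lower in cKO_M1 than in WT_M1, 0 were higher and 21 did not pass (edgeR quasi-likelihood test, Benjamini-Hochberg adjusted p under 0.05 over all 15110 genes). The background was 9.67% of all tested genes lower and 8.98% higher. Because the 38 genes were chosen with earlier results of these data known, their share beside this background is a description and not a test. At an unadjusted p under 0.05, 25 of the 38 differed (65.8%), beside 32.5% of all tested genes; DESeq2 called 18 lower and 0 higher, and limma-voom 17 lower and 0 higher. By class, 7 of 9 stress regulators, 5 of 8 amino acid genes, 1 of 4 ER sensors, 2 of 13 ER folding genes and 2 of 4 degradation genes were lower. The median log2 fold change was -0.73 for the stress regulators, -0.66 for the amino acid genes, -0.04 for the sensors, 0.07 for the folding genes and -0.18 for the degradation genes, beside 0.02 over all tested genes. With library totals alone in place of TMM factors, 17 genes were again lower and 4 were higher, and the share of all calls that were higher was 61.5%, beside 48.2% with TMM. The 4 genes higher under that scaling were Eif4ebp1, Dnajc3, Pdia3 and Manf.

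**Figure D1:**
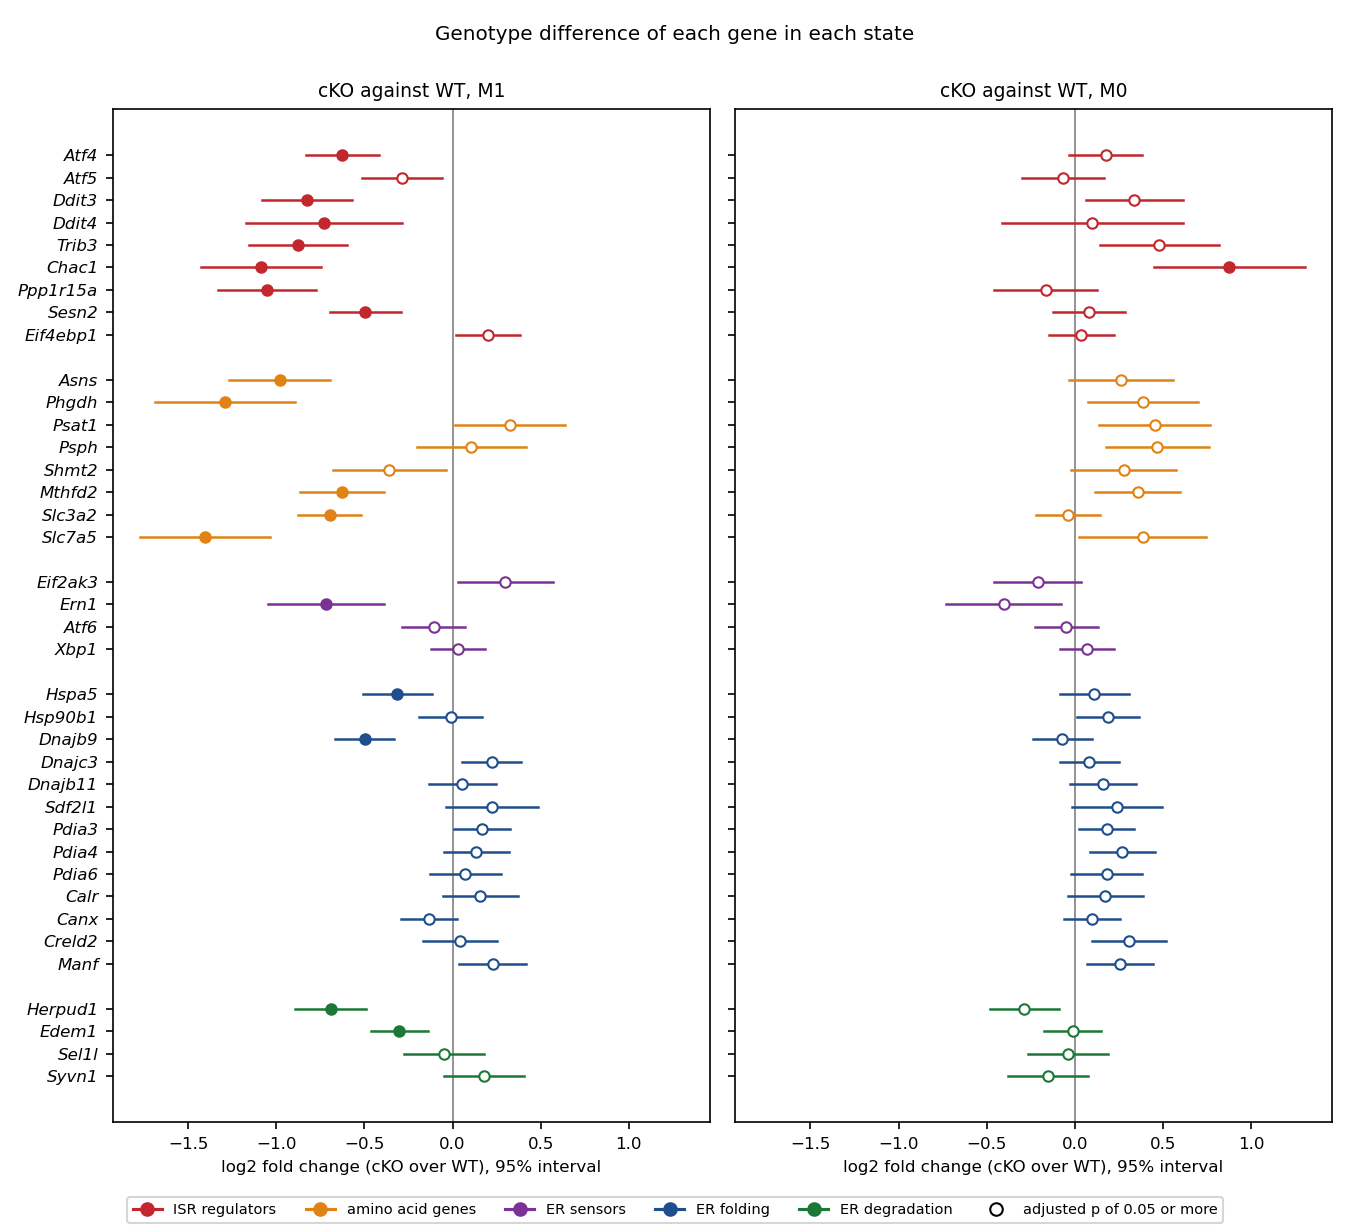
Log2 fold change of each of the 38 genes, cKO over WT, in M1 (left) and M0 (right), with 95% intervals from edgeR; colours give the role class, filled points an adjusted p under 0.05 and open points one of 0.05 or more. In M1 the 17 filled points all lie below 0 and 12 of them are stress regulators or amino acid genes; in M0 Chac1 is the single filled point, above 0.

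Among the stress regulators, 7 of 9 were lower in cKO_M1, with folds of cKO over WT between 0.47 (Chac1) and 0.71 (Sesn2). Atf4 (ENSMUSG00000042406), the transcription factor at the centre of the response, had 403, 386 and 427 CPM in cKO_M1, against 571, 735 and 570.4 CPM in WT_M1. In unstimulated cells Atf4 had 118, 125 and 134 CPM in cKO_M0, against 111, 116 and 106 CPM in WT_M0. The libraries of the genotypes did not overlap in either state, and the genotype difference passed in M1 (log2 fold change -0.63, SE 0.10, adjusted p = 0.000498) and not in M0 (log2 fold change 0.17, SE 0.10, adjusted p = 0.354). Ddit3 (ENSMUSG00000025408), which encodes the transcription factor CHOP, had 111, 103 and 108 CPM in cKO_M1, against 178, 231 and 162 CPM in WT_M1, and 13.2, 13.7 and 14.6 CPM in cKO_M0, against 11.9, 9.07 and 11.9 CPM in WT_M0. In M1 every cKO library of Ddit3 lay below every WT library (log2 fold change -0.83, SE 0.12, adjusted p = 0.000302). Of its exon bases 10.9% are shared with other annotated genes, among them Mars on the opposite strand, and whether counting used strand is not given.

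Trib3 (ENSMUSG00000032715), a pseudokinase that binds ATF4 and CHOP, had 40.4, 34.9 and 45.2 CPM in cKO_M1, against 65.8, 84.2 and 71.2 CPM in WT_M1, and 3.12, 4.59 and 4.5 CPM in cKO_M0, against 2.86, 2.82 and 3.09 CPM in WT_M0. The genotypes did not overlap in M1, where Trib3 was lower in cKO (log2 fold change -0.88, SE 0.13, adjusted p = 0.000338). In M0 the order was the other way round without a pass (log2 fold change 0.48, SE 0.16, adjusted p = 0.132). Chac1 (ENSMUSG00000027313), which degrades glutathione, had 4.15, 4.03 and 5.71 CPM in cKO_M1, against 9.89, 9.11 and 10.6 CPM in WT_M1, and 1.18, 1.47 and 1.42 CPM in cKO_M0, against 0.645, 0.859 and 0.709 CPM in WT_M0. Chac1 was lower in cKO in M1 (log2 fold change -1.09, SE 0.16, adjusted p = 0.000308) and higher in cKO in M0 (log2 fold change 0.88, SE 0.20, adjusted p = 0.0463), with no overlap in either state. Both genes hold the C/EBP-ATF element in the stretches shown above.

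Ppp1r15a (ENSMUSG00000040435), which encodes GADD34, the subunit that directs a phosphatase to eIF2α, had 73.5, 71.6 and 94.2 CPM in cKO_M1, against 153, 199.7 and 144 CPM in WT_M1, and 14.2, 11.6 and 13.9 CPM in cKO_M0, against 15.3, 13.5 and 15.7 CPM in WT_M0. The M1 difference passed as lower in cKO (log2 fold change -1.05, SE 0.13, adjusted p = 0.000106), and its M0 libraries overlapped. Sesn2 (ENSMUSG00000028893), a leucine sensor that restrains mTORC1, had 73, 73.1 and 93.2 CPM in cKO_M1, against 104, 117 and 116 CPM in WT_M1, and 37.8, 39.6 and 37.3 CPM in cKO_M0, against 37.1, 34.3 and 37.2 CPM in WT_M0. Its M1 difference was smaller (log2 fold change -0.49, SE 0.10, adjusted p = 0.00224), again with no overlap. Ddit4 (ENSMUSG00000020108), the mTORC1 inhibitor REDD1, had 4.18, 4.54 and 6.9 CPM in cKO_M1, against 7.43, 10.1 and 8.44 CPM in WT_M1, and 1.67, 1.71 and 1.1 CPM in cKO_M0, against 1.39, 1.159 and 1.63 CPM in WT_M0. It passed in M1 (log2 fold change -0.73, SE 0.21, adjusted p = 0.0226), but adjusted p was 0.0838, 0.0978 and 0.105 without cKO_M1 replicate 7, cKO_M1 replicate 8 or WT_M1 replicate 11. The other 2 regulators did not pass. Atf5, a transcription factor related to ATF4, had 26.2, 25 and 28.7 CPM in cKO_M1, against 29.2, 35.7 and 32.4 CPM in WT_M1 (log2 fold change -0.29, SE 0.11, adjusted p = 0.0764), and Eif4ebp1, an ATF4 target that binds the cap-binding factor eIF4E, had 72.4, 65.5 and 64 CPM in cKO_M1, against 55.6, 62.9 and 57.1 CPM in WT_M1 (log2 fold change 0.20, SE 0.09, adjusted p = 0.116). Atf5 passed as lower with DESeq2 (log2 fold change -0.30, adjusted p = 0.0379) and in edgeR without cKO_M1 replicate 9 (-0.35, adjusted p = 0.0478). Other genes lie opposite 4.11% of the exon bases of Atf5. Neither gene's M1 libraries overlapped between genotypes, and Eif4ebp1 was the regulator with a positive log2 fold change.

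**Figure D2:**
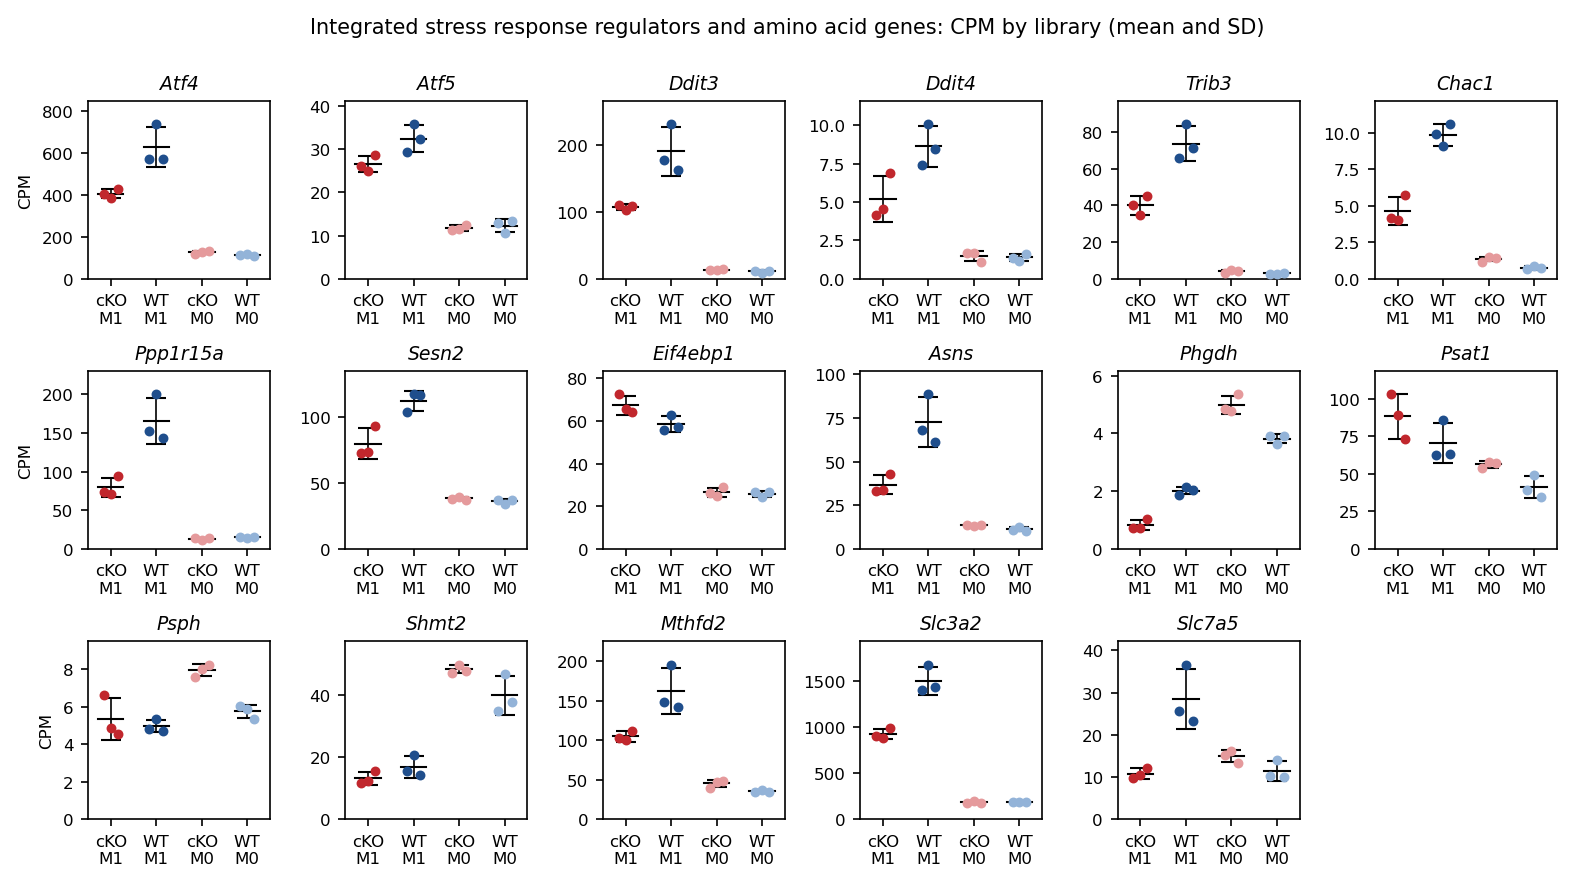
CPM in each of the 12 libraries for the 9 stress regulators and 8 amino acid genes, with the group mean and SD as bars; each vertical axis starts at 0 and has its own range, and groups run cKO M1, WT M1, cKO M0, WT M0. In Atf4, Ddit3, Trib3, Asns and Slc3a2 both M1 groups stand above both M0 groups, and WT M1 stands above cKO M1.

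Among the amino acid genes, the carriers and Asns, Mthfd2 and Phgdh were lower in cKO_M1, and Psat1, Psph and Shmt2 did not pass. Slc7a5 (ENSMUSG00000040010), the light chain of the transporter LAT1 for large neutral amino acids, had 9.63, 10.5 and 12.1 CPM in cKO_M1, against 25.6, 36.6 and 23.4 CPM in WT_M1, and 15.3, 16.1 and 13.3 CPM in cKO_M0, against 10.3, 14.1 and 9.92 CPM in WT_M0. It had the largest M1 genotype difference of the 38 genes, with a fold of 0.377 (log2 fold change -1.41, SE 0.17, adjusted p = 0.0001), and its M0 libraries overlapped. Slc3a2 (ENSMUSG00000010095), the heavy chain 4F2hc that pairs with Slc7a5, had 905, 886 and 991 CPM in cKO_M1, against 1400, 1681 and 1433 CPM in WT_M1, and 170.5, 193 and 179 CPM in cKO_M0, against 186, 185 and 187 CPM in WT_M0. It was lower in cKO_M1 at a fold of 0.616 (log2 fold change -0.70, SE 0.08, adjusted p = 9.79e-05), and in M0 the genotypes overlapped.

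Asns (ENSMUSG00000029752), asparagine synthetase, had 33.1, 33.9 and 43.1 CPM in cKO_M1, against 68.1, 88.5 and 61 CPM in WT_M1, and 13.9, 13.3 and 13.5 CPM in cKO_M0, against 10.9, 12.8 and 10.2 CPM in WT_M0. Its level in cKO_M1 was 0.506 of that in WT_M1 (log2 fold change -0.98, SE 0.13, adjusted p = 0.000192), with no overlap, and its promoter holds the C/EBP-ATF element close before the start. Mthfd2 (ENSMUSG00000005667), a mitochondrial enzyme of folate metabolism, had 103, 99.5 and 112 CPM in cKO_M1, against 149, 196 and 142 CPM in WT_M1, and 39.8, 47 and 48.5 CPM in cKO_M0, against 34.6, 36.9 and 34.3 CPM in WT_M0. The cKO_M1 level was lower than that of WT_M1 (log2 fold change -0.63, SE 0.11, adjusted p = 0.00138), and in M0 its cKO libraries all lay above its WT libraries without a pass (log2 fold change 0.36, SE 0.11, adjusted p = 0.12). Phgdh (ENSMUSG00000053398), the first enzyme of serine synthesis, was scarce, at 0.71, 0.738 and 1.02 CPM in cKO_M1, against 1.87, 2.13 and 2.05 CPM in WT_M1, and 4.84, 4.79 and 5.35 CPM in cKO_M0, against 3.91, 3.64 and 3.92 CPM in WT_M0. In M1 the fold of cKO over WT was 0.408 (log2 fold change -1.29, SE 0.19, adjusted p = 0.000289). The next enzymes of serine synthesis did not pass in M1. Psat1 had 103, 88.9 and 73 CPM in cKO_M1, against 62.3, 86 and 63.3 CPM in WT_M1 (log2 fold change 0.32, SE 0.15, adjusted p = 0.14), and Psph had 6.62, 4.85 and 4.53 CPM in cKO_M1, against 4.83, 5.32 and 4.72 CPM in WT_M1 (log2 fold change 0.11, SE 0.15, adjusted p = 0.663). Cct6a lies opposite 10.4% of the exon bases of Psph. Shmt2, which turns serine into glycine in mitochondria, had 11.53, 12.2 and 15.5 CPM in cKO_M1, against 15.6, 20.7 and 14.1 CPM in WT_M1 (log2 fold change -0.36, SE 0.15, adjusted p = 0.109), and the M1 libraries of all 3 genes overlapped between genotypes. Psat1 passed as higher in cKO_M1 without a low-count filter (log2 fold change 0.30, edgeR adjusted p = 0.0234), without cKO_M1 replicate 9 (0.43, adjusted p = 0.0457) or without WT_M1 replicate 11 (0.48, adjusted p = 0.0446), and Shmt2 as lower without that filter (-0.38, adjusted p = 0.0126) and without cKO_M1 replicate 9 (-0.51, adjusted p = 0.0285) or WT_M1 replicate 12 (-0.48, adjusted p = 0.0448).

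Summed over the 9 regulators, the level was 807, 767 and 874 CPM in the cKO_M1 libraries and 1173, 1484 and 1172 CPM in the WT_M1 libraries. Summed over the 8 amino acid genes, it was 1172, 1137 and 1252 CPM in cKO_M1 and 1727, 2116 and 1743 CPM in WT_M1. WT_M1 replicate 11 stood above its group in both sums, and it was the highest WT_M1 library for 16 of these 17 genes. Among the cKO_M1 libraries, replicate 9 was highest for 13 of the 17. Without WT_M1 replicate 11, 15 of the 38 genes were lower in cKO_M1 and 1 was higher, with Ddit4 and Hspa5 lost and Psat1 gained. On the second principal component of all tested genes, which held 4.33% of the variance, WT_M1 replicate 11 was at -44.9, the other WT_M1 libraries at -24 and -19.9, and the cKO_M1 libraries at 37.6, 33.3 and 19.6.

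Of the 4 ER sensors and transducers, 1 was lower in cKO_M1. Ern1 (ENSMUSG00000020715), which encodes the sensor IRE1α, had 67.6, 74.9 and 97.6 CPM in cKO_M1, against 112, 166 and 117 CPM in WT_M1, and 55.4, 53.3 and 42.2 CPM in cKO_M0, against 65.5, 66.8 and 67.2 CPM in WT_M0. It was lower in cKO_M1 (log2 fold change -0.72, SE 0.15, adjusted p = 0.00448), and in M0 all 3 cKO libraries lay below the WT libraries without a pass (log2 fold change -0.40, SE 0.15, adjusted p = 0.18). Eif2ak3 (ENSMUSG00000031668), the gene of the kinase PERK, had 12.7, 14.5 and 14.8 CPM in cKO_M1, against 12.8, 8.75 and 12.5 CPM in WT_M1, and 35.6, 37.5 and 33.1 CPM in cKO_M0, against 41.5, 41.8 and 39.5 CPM in WT_M0. Its genotype difference did not pass in M1 (log2 fold change 0.30, SE 0.13, adjusted p = 0.111), where the libraries overlapped, and 8.05% of its exon bases lie opposite another annotated gene. Atf6, the membrane-bound transcription factor, averaged 161 ± 11.7 CPM in cKO_M1 and 173 ± 4.46 CPM in WT_M1 (SD, n = 3 each). Xbp1, whose mRNA is cut by IRE1α, averaged 149.9 ± 4.06 CPM in cKO_M1 and 147 ± 7.95 CPM in WT_M1 (SD, n = 3 each). The 95% interval of the M1 log2 fold change was -0.29 to 0.07 for Atf6 and -0.12 to 0.18 for Xbp1.

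Of the 13 ER chaperones and folding enzymes, 2 were lower in cKO_M1 and 11 did not pass. Hspa5 (ENSMUSG00000026864), the gene of the chaperone BiP, which also holds the stress sensors in their inactive state, had 1341, 1301 and 1260 CPM in cKO_M1, against 1575, 1739 and 1534 CPM in WT_M1, and 994, 1239 and 1182 CPM in cKO_M0, against 999.7, 1148 and 1017 CPM in WT_M0. It was lower in cKO_M1 at a fold of 0.805 with no overlap (log2 fold change -0.31, SE 0.09, adjusted p = 0.0272), and adjusted p was 0.0588 without cKO_M1 replicate 8 and 0.077 without WT_M1 replicate 11. Dnajb9 (ENSMUSG00000014905), the co-chaperone ERdj4 and a known target of Xbp1, had 39.3, 39.3 and 41.6 CPM in cKO_M1, against 58.6, 59.1 and 51.9 CPM in WT_M1, and 28.9, 28.2 and 31.1 CPM in cKO_M0, against 31.9, 29.8 and 31 CPM in WT_M0. Its cKO_M1 libraries all lay below the WT_M1 libraries (log2 fold change -0.50, SE 0.08, adjusted p = 0.000555), and its M0 libraries overlapped.

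For the 11 others, the M1 log2 fold changes lay between -0.13 (Canx) and 0.23 (Manf). Calr, the lectin chaperone calreticulin, had 2047, 2103 and 1971 CPM in cKO_M1, against 1839, 1852 and 1796 CPM in WT_M1 (log2 fold change 0.16, SE 0.10, adjusted p = 0.295), and Canx, its membrane-bound relative calnexin, had 457, 451 and 455 CPM in cKO_M1, against 518, 523 and 454 CPM in WT_M1 (log2 fold change -0.13, SE 0.07, adjusted p = 0.241). Hsp90b1, the chaperone GRP94, had 556, 567 and 548 CPM in cKO_M1, against 573, 596 and 515 CPM in WT_M1 (log2 fold change -0.01, SE 0.08, adjusted p = 0.946), and 15.7% of its exon bases are shared with other annotated genes. Creld2 (ENSMUSG00000023272), an ER stress-induced secreted protein, had 69.7, 62.7 and 55.3 CPM in cKO_M1, against 59.8, 58.6 and 63.6 CPM in WT_M1, and 40.9, 49.5 and 50.04 CPM in cKO_M0, against 37.3, 40.2 and 36 CPM in WT_M0, with overlap between genotypes in M1. Dnajc3, the co-chaperone p58IPK that inhibits eIF2α kinases, came nearest to a pass among the 11 (95.6, 94.2 and 83.4 CPM in cKO_M1, against 83.3, 75.5 and 75.6 CPM in WT_M1; log2 fold change 0.22, SE 0.08, adjusted p = 0.0628). Pdia3, Pdia4 and Pdia6, disulfide isomerases, had log2 fold changes of 0.17, 0.13 and 0.07. Dnajb11, a co-chaperone of BiP, had 0.06, Sdf2l1, a component of chaperone complexes, had 0.22, and Manf, a secreted ER stress protein, had 0.23. For Calr, Pdia3, Pdia4, Dnajc3 and Manf every cKO_M1 library lay above every WT_M1 library, without a pass. The share of all tested genes without overlap was not counted. At an unadjusted p under 0.05 in edgeR, 5 of the 13 folding genes differed in M1, beside 32.5% of all tested genes. Without cKO_M1 replicate 9, Dnajc3 (log2 fold change 0.27, edgeR adjusted p = 0.0268) and Sdf2l1 (0.34, adjusted p = 0.0384) passed as higher in cKO_M1. Other annotated genes share 9.25% of the exon bases of Manf. Summed over the 13 genes the level was 6302, 6310 and 5944 CPM in cKO_M1 and 6228, 6377 and 5961 CPM in WT_M1, which overlapped. Calr, Canx and Dnajc3, whose ER stress elements are shown above beside that of Hspa5, did not pass.

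**Figure D3:**
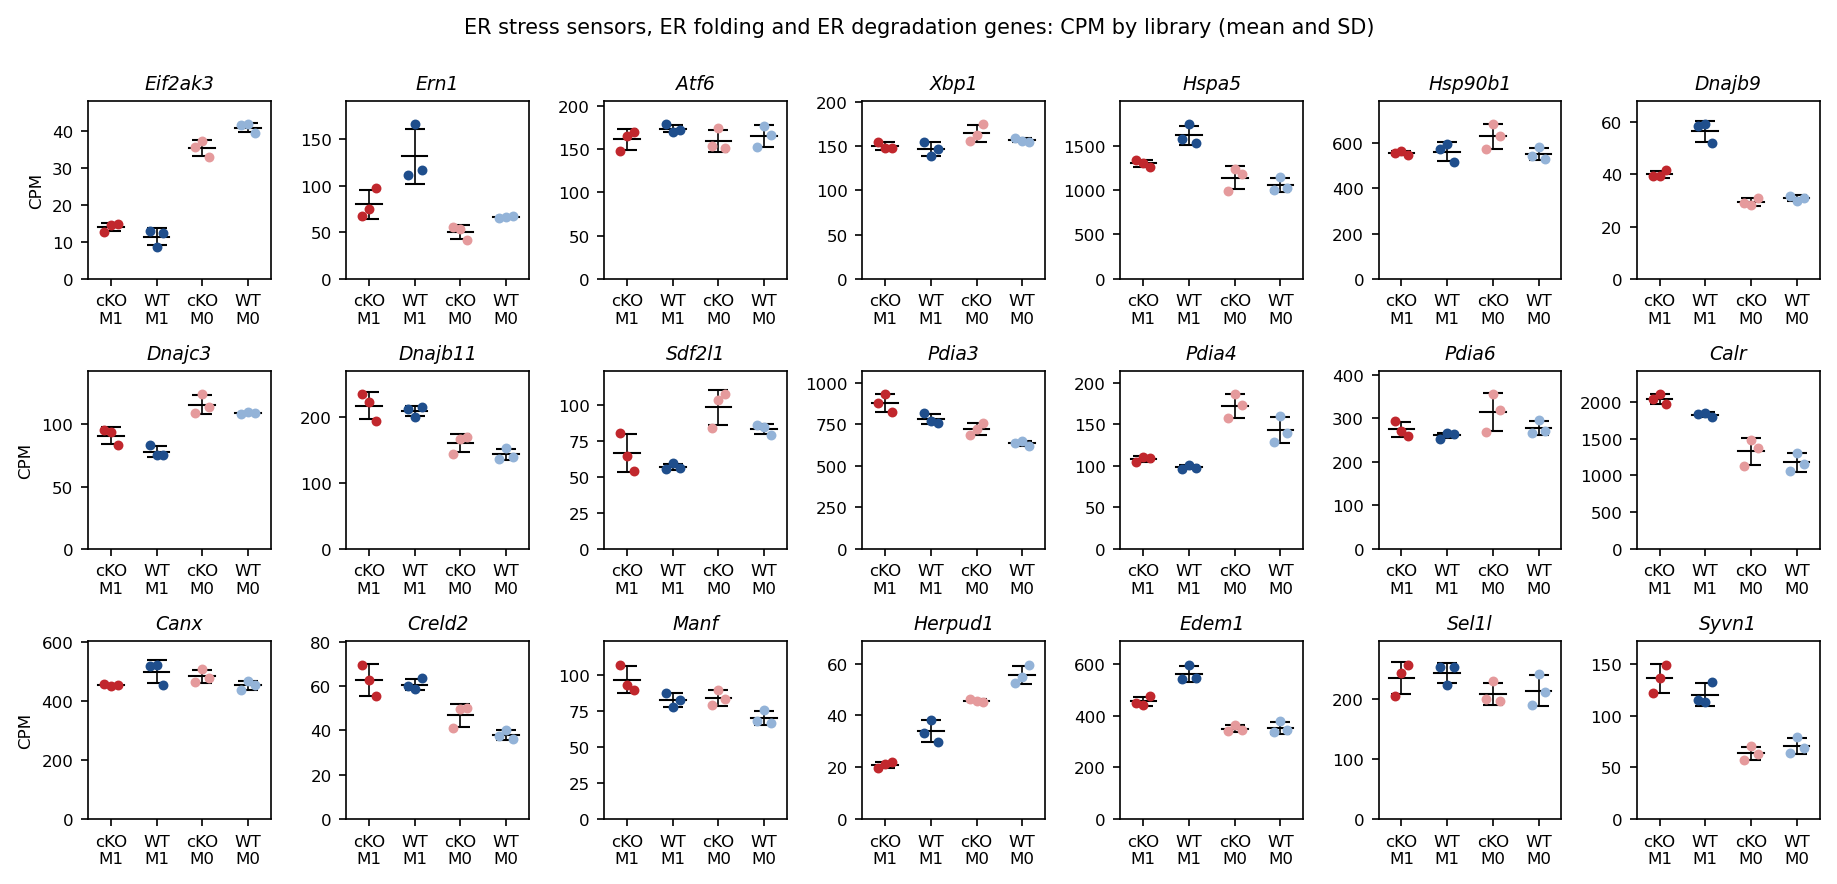
CPM in each of the 12 libraries for the 4 ER sensors, 13 folding genes and 4 degradation genes, with the group mean and SD as bars; each vertical axis starts at 0 and has its own range, and groups run cKO M1, WT M1, cKO M0, WT M0. The M1 libraries of the genotypes are apart with cKO below WT for Ern1, Hspa5, Dnajb9, Herpud1 and Edem1, apart with cKO above WT for Calr, Pdia3, Pdia4, Dnajc3 and Manf, and overlap for Xbp1, Atf6, Creld2 and Sel1l. The genes with cKO above WT did not pass, and the share of all tested genes without overlap was not counted.

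Of the 4 genes of ER-associated degradation, Herpud1 and Edem1 were lower in cKO_M1. Herpud1 (ENSMUSG00000031770), a membrane protein that assembles the degradation complex, had 19.7, 21.2 and 22 CPM in cKO_M1, against 33.3, 38.4 and 29.9 CPM in WT_M1, and 46.2, 45.7 and 45.1 CPM in cKO_M0, against 52.7, 54.7 and 59.6 CPM in WT_M0. Its fold of cKO over WT in M1 was 0.619 (log2 fold change -0.69, SE 0.09, adjusted p = 0.000199), and it is the degradation gene whose promoter holds both the C/EBP-ATF element and the second form of the ER stress element. Edem1 (ENSMUSG00000030104), which passes misfolded glycoproteins on for degradation, had 448, 442 and 475 CPM in cKO_M1, against 542, 598 and 544 CPM in WT_M1, and 342, 365 and 344 CPM in cKO_M0, against 337, 379.7 and 343 CPM in WT_M0. Its difference in M1 was smaller (log2 fold change -0.30, SE 0.08, adjusted p = 0.0118), again with no overlap. Syvn1 (ENSMUSG00000024807), the ubiquitin ligase HRD1, had 122, 137 and 149.9 CPM in cKO_M1, against 115, 114 and 133 CPM in WT_M1, and 57.6, 70.4 and 62.9 CPM in cKO_M0, against 64.2, 79.5 and 68.5 CPM in WT_M0, with overlap between genotypes in both states (log2 fold change 0.18, SE 0.11, adjusted p = 0.269 in M1). Sel1l, the partner of HRD1, averaged 234 ± 27.1 CPM in cKO_M1 and 243 ± 16.8 CPM in WT_M1 (SD, n = 3 each; 95% interval of the log2 fold change -0.28 to 0.18). The promoters with a C/EBP-ATF element were those of 4 of the 16 genes lower in cKO_M1 that had a promoter and of 0 of the 18 that did not pass. The ER stress element was in 1 of the 16, that of Hspa5, and in 7 of the 18. The genes were chosen by pathway, and 7 of the 8 genes with the ER stress element were folding genes. Element and role class therefore cannot be told apart here, and a part of either element in the calls was not tested.

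In unstimulated cells 1 of the 38 genes passed, Chac1, which was higher in cKO_M0, and 0 were lower. The background was 0.662% of all tested genes higher and 0.953% lower. Chac1 did not pass with limma-voom (adjusted p = 0.0781) and passed in 5 of the 12 fits that left out 1 library each. At an unadjusted p under 0.05, 15 of the 38 genes differed (39.5%), beside 18.6% of all tested genes. The log2 fold change was positive for 27 of the 38, with a median of 0.17 beside 0.01 over all tested genes. The next largest M0 log2 fold changes were 0.48 for Trib3, 0.47 for Psph and 0.45 for Psat1, with adjusted p of 0.132, 0.096 and 0.127 in edgeR. Psph had 7.6, 8.03 and 8.25 CPM in cKO_M0, against 6.02, 5.87 and 5.35 CPM in WT_M0, with no overlap. DESeq2 called 3 genes in M0, with Psph higher (log2 fold change 0.46, adjusted p = 0.0234) and Herpud1 lower (-0.29, adjusted p = 0.047) besides Chac1. The edgeR fit without a low-count filter called 8. Chac1, Ddit3, Trib3, Psat1, Mthfd2, Slc7a5 and Creld2 were higher in cKO_M0, and Ern1 was lower. Of all 27501 genes in that fit, 709 were higher and 473 lower.

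Stimulation was the larger difference for the stress regulators. All 9 were higher in M1 than in M0 in both genotypes, from 2.09-fold (Sesn2) to 9.87-fold (Trib3) in cKO and from 2.26-fold (Eif4ebp1) to 25.2-fold (Trib3) in WT, and this held with library totals alone. Over all 38 genes, 22 were higher and 9 lower in cKO_M1 than in cKO_M0, beside a background of 34.2% of all tested genes higher and 36% lower. In WT, 24 were higher and 7 lower in WT_M1 than in WT_M0, beside 34.2% higher and 37.1% lower. Atf4 was 3.23-fold higher in cKO_M1 than in cKO_M0 and 5.62-fold higher in WT_M1 than in WT_M0. Ddit3 was 7.74-fold higher in cKO_M1 and 17.4-fold higher in WT_M1, each against its own M0 group.

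The amino acid genes divided. Asns, Mthfd2, Slc3a2 and Psat1 were higher in M1 in both genotypes, Phgdh and Shmt2 were lower in both, and Psph was lower in cKO (log2 fold change -0.58, SE 0.14, adjusted p = 0.00172) and did not pass in WT (log2 fold change -0.21, SE 0.14, adjusted p = 0.189). With library totals alone Psat1 no longer passed in either genotype. Slc7a5 moved in opposite directions, to 10.8 ± 1.27 CPM in cKO_M1, against 14.9 ± 1.47 CPM in cKO_M0 (log2 fold change -0.47, SE 0.17, adjusted p = 0.0234), and to 28.5 ± 7.11 CPM in WT_M1, against 11.4 ± 2.31 CPM in WT_M0 (log2 fold change 1.32, SE 0.17, adjusted p = 4.02e-06; SD, n = 3 each). The fall in cKO did not pass without cKO_M1 replicate 7 or 8 or without cKO_M0 replicate 1 or 2 (log2 fold changes from -0.46 to -0.39). Phgdh, which had 4.99 ± 0.307 CPM in cKO_M0 and 3.82 ± 0.161 CPM in WT_M0 (SD, n = 3 each), fell by 2.60 on the log2 scale in cKO and by 0.92 in WT.

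For the 21 ER genes the median log2 fold change of M1 over M0 was 0.17 in cKO and 0.19 in WT, and the direction of several genes depended on the scaling. Eif2ak3 fell in both genotypes (log2 fold change -1.34 in cKO and -1.85 in WT), as did Herpud1 (-1.12 and -0.72), Pdia4 (-0.67 and -0.54), Sdf2l1 (-0.56 and -0.55) and Dnajc3 (-0.35 and -0.49). Library totals alone lower the M1 over M0 values of all genes. That scaling could therefore only deepen these falls and is no check on them. Syvn1 was 2.14-fold higher in cKO_M1 than in cKO_M0 and 1.71-fold higher in WT_M1 than in WT_M0, and the rise in WT did not pass with library totals alone (log2 fold change 0.19, adjusted p = 0.109). Of the 13 folding genes, 6 were higher and 3 lower in cKO_M1 than in cKO_M0, and 7 were higher and 3 lower in WT_M1 than in WT_M0. The background was 34.2% of all tested genes higher and 36% lower in cKO, and 34.2% higher and 37.1% lower in WT. TMM factors averaged 0.84 in cKO_M1 and 1.22 in cKO_M0, and 0.808 in WT_M1 and 1.21 in WT_M0, and without them the median over all genes of M1 against M0 moved to -0.58, against -0.04 with them, in cKO and to -0.65, against -0.07 with them, in WT. With library totals alone the signs of Pdia3 (0.28 with TMM and -0.25 with library totals alone, in cKO), Manf (0.21 and -0.33) and Dnajb11 (0.44 and -0.10) turned. Hspa5 was 1.53-fold higher in WT_M1 than in WT_M0, a call lost with library totals alone, and did not pass in cKO (log2 fold change 0.19, SE 0.09, adjusted p = 0.0739). In cKO Hspa5 passed as higher with DESeq2 (0.21, adjusted p = 0.0493). It also passed as higher in edgeR without WT_M1 replicate 11 (0.20, adjusted p = 0.0464) or cKO_M0 replicate 2 (0.25, adjusted p = 0.037). With library totals alone it passed as lower in cKO (-0.34, edgeR adjusted p = 0.00184).

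**Figure D4:**
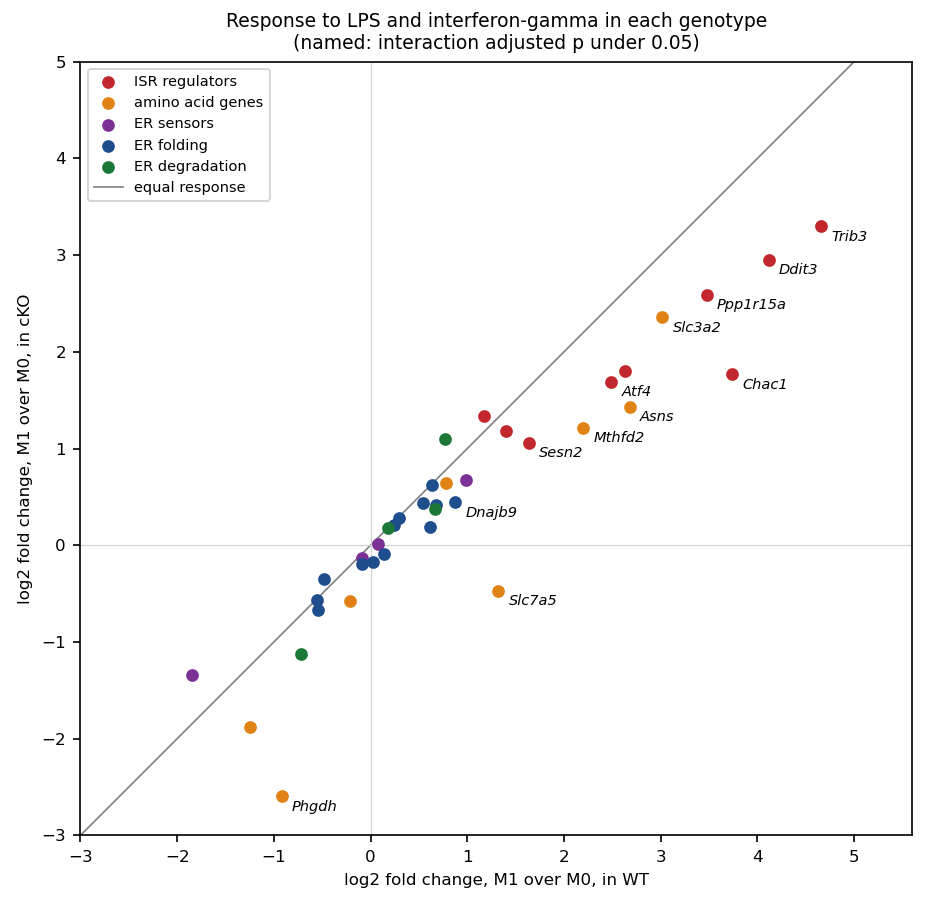
Log2 fold change of M1 over M0 in WT (horizontal axis) and in cKO (vertical axis) for the 38 genes, coloured by role class, with the line of equal response; named genes have an adjusted p under 0.05 for the difference between the genotypes' responses. All 12 named genes lie below the line. Values are on the TMM scale. With library totals alone, which is not drawn, the values of all genes are lower on both axes, and several ER folding genes near 0 change sign.

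The response to stimulation was tested against genotype as an interaction, the genotype difference in M1 minus that in M0. For 12 of the 38 genes it passed, all 12 with a smaller or more negative response in cKO, and for 0 in the other direction. The background was 4.14% of all tested genes lower and 4.02% higher. At an unadjusted p under 0.05, 20 of the 38 differed (52.6%), beside 23.9% of all tested genes, and DESeq2 called 16 lower and 1 higher, Eif2ak3. The 12 were 6 stress regulators (Atf4, Ddit3, Trib3, Chac1, Ppp1r15a and Sesn2), 5 amino acid genes (Asns, Phgdh, Mthfd2, Slc3a2 and Slc7a5) and 1 folding gene (Dnajb9). The largest were Chac1 (log2 fold change -1.97, SE 0.26, adjusted p = 0.000887), Slc7a5 (log2 fold change -1.79, SE 0.24, adjusted p = 0.00102) and Phgdh (log2 fold change -1.68, SE 0.24, adjusted p = 0.00137). Chac1 rose 3.41-fold in cKO and 13.3-fold in WT. None of the 4 sensors and none of the 4 degradation genes passed in the reported fit, nor did 12 of the 13 folding genes. With DESeq2 the degradation genes Herpud1 (-0.42, adjusted p = 0.0329) and Edem1 (-0.30, adjusted p = 0.0395) passed as lower. Herpud1 also passed in edgeR without WT_M1 replicate 12 (-0.49, adjusted p = 0.0233) and without a low-count filter (-0.44, adjusted p = 0.0499). For Hspa5 the interaction was -0.42 with an adjusted p of 0.0575 in edgeR, and it passed with DESeq2 (adjusted p = 0.0181) and limma-voom (adjusted p = 0.0482). The calls of Dnajb9 and Sesn2 were lost in 8 and in 1 of the 12 fits that left out 1 library each.

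Across genes, levels were compared per kilobase of the deposited gene length. In WT_M1 the highest of the 38 was Calr at 635 CPM per kilobase, followed by Slc3a2 at 426 and Hspa5 at 382, and the lowest was Phgdh at 0.812. In cKO_M1 Calr was at 708 CPM per kilobase, Hspa5 at 308, Pdia3 at 279 and Slc3a2 at 263, and Phgdh was again the lowest at 0.331. In M0 the highest was again Calr, at 461 CPM per kilobase in cKO_M0 and 409 in WT_M0, and the lowest was Chac1, at 0.829 in cKO_M0 and 0.451 in WT_M0.

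A wider set of 112 genes of the same pathways, chosen with earlier results of these data known, was set beside these, and 107 were tested. In cKO_M1 against WT_M1, 20 of them were lower and 7 higher, beside the background of 9.67% of all tested genes lower and 8.98% higher. The further amino acid genes, mostly aminoacyl-tRNA synthetases and carriers, had 12 lower and 1 higher of 28 tested, with a median log2 fold change of -0.27. Cars1, cysteinyl-tRNA synthetase, had 93, 91.9 and 96.8 CPM in cKO_M1, against 127, 150.1 and 135 CPM in WT_M1 (log2 fold change -0.55, SE 0.08, adjusted p = 0.000227). Sars1 and Nars1, the seryl- and asparaginyl-tRNA synthetases, had log2 fold changes of -0.49 and -0.41 (adjusted p = 0.00109 and 0.00151, edgeR). Pck2, mitochondrial phosphoenolpyruvate carboxykinase and a known ATF4 target, had 15.9, 18 and 22.6 CPM in cKO_M1, against 30.5, 39 and 32.3 CPM in WT_M1 (log2 fold change -0.85, SE 0.13, adjusted p = 0.000347). These 4 genes had no overlap between genotypes in M1.

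Of 17 further stress response genes tested, 3 were lower and 2 higher in cKO_M1, which at this list size is close to the background of 9.67% lower and 8.98% higher. Gdf15, a secreted stress cytokine known as a target of ATF4 and CHOP, had 80.6, 77.6 and 139 CPM in cKO_M1, against 274, 477 and 289.8 CPM in WT_M1, and 12.9, 18.2 and 16.1 CPM in cKO_M0, against 15.3, 13.9 and 17.5 CPM in WT_M0 (log2 fold change -1.81, SE 0.23, adjusted p = 0.00011 in M1; log2 fold change -1.82, SE 0.32, adjusted p = 0.00477 for the interaction). Eif2ak4, the amino acid sensing kinase GCN2, was lower (log2 fold change -0.37, SE 0.09, adjusted p = 0.0098) and Nupr1, a stress-induced nuclear protein, was lower (log2 fold change -0.44, SE 0.11, adjusted p = 0.0142). Trib1, a pseudokinase relative of Trib3, was higher (35.1, 37.9 and 31.5 CPM in cKO_M1, against 19.7, 14 and 22.5 CPM in WT_M1; log2 fold change 0.89, SE 0.15, adjusted p = 0.000729), as was Eif2ak2, the double-stranded RNA-sensing kinase PKR, which is interferon-induced (log2 fold change 0.63, SE 0.18, adjusted p = 0.0221).

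The further folding, degradation and sensor lists had 1 to 2 genes called in each direction, beside the same background of 9.67% lower and 8.98% higher. Of 29 further folding genes, 1 was lower (Dnajc1, -0.48) and 2 were higher in cKO_M1 (Uggt1, 0.63, and Spcs3, 0.29), with a median of 0.07. Uggt1 is the glucosyltransferase that checks glycoprotein folding. Of 21 further degradation genes, 2 were lower (Ubxn4, -0.55, and Edem2, -0.30) and 1 was higher (Ube2g2, 0.25), with a median of -0.05. Of 12 further sensors and transducers, 2 were lower (Mbtps2, -0.35, and Nfe2l1, -0.26) and 1 was higher (Map3k5, 0.65), with a median of 0.06. In M0, 2 of the 107 passed, beside 0.662% of all tested genes higher and 0.953% lower, and both were higher in cKO_M0, Eif2s1, which encodes eIF2α (87.5, 87.6 and 102 CPM in cKO_M0, against 65.3, 72.7 and 64.8 CPM in WT_M0; log2 fold change 0.45, SE 0.11, adjusted p = 0.0475), and Slc1a4, a carrier of neutral amino acids (3.12, 4.65 and 4.21 CPM in cKO_M0, against 2, 2.88 and 2.17 CPM in WT_M0; log2 fold change 0.77, SE 0.18, adjusted p = 0.048). Without cKO_M0 replicate 3, and likewise without WT_M0 replicate 6, 0 of all tested genes were higher in cKO_M0 in edgeR. The calls of Eif2s1 and Slc1a4 in M0 were therefore lost in these fits. For the interaction, 12 of the 107 were lower and 3 higher, beside 4.14% of all tested genes lower and 4.02% higher, and 10 of the 12 were amino acid genes.

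**Figure D5:**
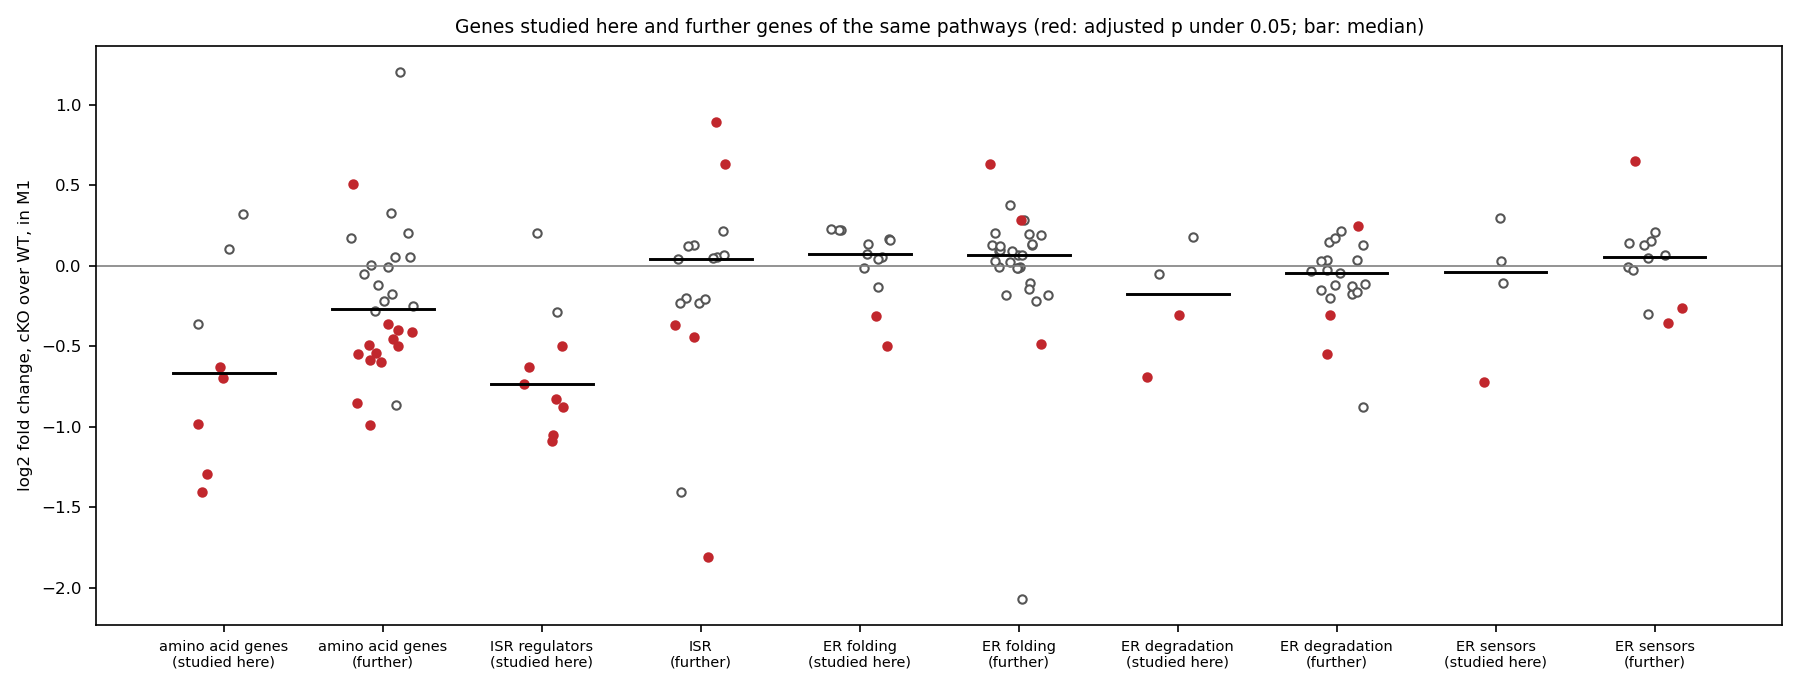
Log2 fold change of cKO over WT in M1 for the 38 genes and for the 107 further tested genes of the same pathways, by role class, with red for an adjusted p under 0.05 and the bar at the median. Red points below 0 gather in the amino acid and stress regulator columns, while the ER folding columns have medians of 0.07.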

How the data were processed

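RNA sequencing counts of 12 libraries in 4 groups of 3 were analysed, grouped by the sample labels. What the authors deposited were unnormalized counts of each gene in every library, with a gene length in bases per the file headers, used here only for levels per kilobase. Per the submitters' processing notes the build was GRCm39 and the tools included featureCounts 2.0.3, HISAT2 2.2.1, Trimmomatic 0.39 and SAMtools 1.16.1. The options for strand and multi-mapping were not given in the sources used here. Of the counts from 1 to 10, 60.9% were even, so counts were also halved as an alternative.

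Symbols were matched to Ensembl identifiers through reference name tables (52073 of 56980 identifiers). Ddit3 had 2 identifiers, and the one with the greater gene length was used. Genes were kept by filterByExpr (minimum count 10, minimum total 15) in edgeR 4.0.16 in R 4.3.3. Libraries were scaled by TMM. All 12 libraries entered 1 model of the 4 group means (common biological coefficient of variation 0.111). Each contrast had a quasi-likelihood F-test, with p-values adjusted by Benjamini-Hochberg over 15110 genes and a call at an adjusted p under 0.05; every adjusted p in the text is from edgeR unless another tool is named. Standard errors were derived from F and the log2 fold change, and intervals are at 95%. Alternatives were library totals alone, median ratio size factors, no low-count filter, DESeq2 1.42.0, limma-voom (limma 3.58.1), halved counts, fits of only the 6 libraries compared and leaving out each library. The edgeR step was tested on simulated data with known changes.

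The 38 genes and the other lists were chosen with earlier results of these data known. Per-library values are given for genes that passed between genotypes or in the interaction and, per class, for the 2 with the largest change between M1 and M0 in WT; values of further genes were added after they were seen. Of the further pathway lists, up to 4 genes with the smallest p that passed in M1 and up to 2 in M0 are named. Exon overlaps came from GENCODE M21 on GRCm38, promoters from RefSeq on GRCm38.p6.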

Additional observations from a re-analysis of the deposited data

Results flagged for a closer look

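For 12 genes the genotype difference in M1 was not that in M0 by the interaction test in edgeR, each with a negative value (log2 scale, genotype difference in M1 minus that in M0). For the stress regulators it was -0.80 for Atf4, -1.16 for Ddit3, -1.35 for Trib3, -1.97 for Chac1, -0.89 for Ppp1r15a and -0.57 for Sesn2. For the amino acid genes it was -1.24 for Asns, -1.68 for Phgdh, -0.98 for Mthfd2, -0.66 for Slc3a2 and -1.79 for Slc7a5. For the co-chaperone gene Dnajb9 it was -0.43. The background for a negative interaction was 4.14% of tested genes.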

How the results depend on the processing

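In M1 the count of genes lower in cKO was 17 in the reported fit and 17 or 18 under every other scaling, filter, tool or fit tried, and the number called in all went from 15 (without cKO_M1 replicate 8) to 22 (without cKO_M1 replicate 9, 19 lower and 3 higher, the 3 being Psat1, Dnajc3 and Sdf2l1). The interaction count of 12 was 17 without a low-count filter and with DESeq2, and 10 to 15 with 1 library left out. In M0 the count of 1 became 8 without a low-count filter (7 higher, 1 lower), 3 with DESeq2, 0 with limma-voom and 0 with halved counts, and 0 to 3 with 1 library left out. Chac1 in M0 was lost with limma-voom, halved counts, the 6-library fit and 7 of 12 fits without 1 library, with adjusted p up to 0.258. Stimulation called 31 genes in each genotype, and 30 to 32 under all alternatives. With library totals alone these 31 were 13 higher and 18 lower in cKO and 15 higher and 16 lower in WT. Among genes called in the reported fit, signs turned under that scaling in cKO for Dnajb9 (-0.0902), Dnajb11 (-0.10), Pdia3 (-0.25), Creld2 (-0.12), Manf (-0.33) and Edem1 (-0.16). In WT they turned for Dnajb11 (-0.0405), Pdia3 (-0.29) and Manf (-0.34). Among genes not called in the reported fit, Hspa5 (-0.34), Atf6 (-0.52) and Sel1l (-0.36) went from a positive value to a lower call in cKO. Atf6 (-0.51), Hsp90b1 (-0.56), Canx (-0.44) and Sel1l (-0.40) did so in WT. All genes shift together by construction there. Of 1736 values under alternatives, taken only for genes called in the reported fit, 1681 kept direction and call, 46 kept direction only and 9 turned. Genes near 1 CPM, such as Phgdh, Chac1 and Ddit4, have wider intervals. No paired analysis was possible because the replicate numbers are not shared between groups.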
